A study of Mus musculus with 6 samples.

Results

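The type 1, type 2 and follicular cytokines were followed as 10 genes taken by symbol from the 55487 genes of the count table: Ifng, Il2, Il3, Il4, Il5, Il6, Il9, Il10, Il13 and Il21. RNA was sequenced from lymphocytes sorted from the small-intestinal epithelium of C57BL/6J mice labelled wild type, with 3 libraries of B220-CD3ε+CD45+ cells, labelled T cells, and 3 libraries of B220+CD3ε+CD45+ cells, labelled X cells. CD3ε is a chain of the T cell receptor complex, CD45 is the leukocyte phosphatase encoded by Ptprc, and B220 is a long CD45 isoform carried mainly by B cells. No age, sex or treatment is given in the labels, all 6 libraries share the genotype, and the labels do not say whether replicates are separate animals, so p-values measure only the spread between these libraries, which may be technical. Cd3e, Cd3d, Cd3g and Trac were abundant in both groups and did not pass the test, while Cd247 was lower in B220+ cells. Of 5 B cell markers, 3 lay under 1 CPM (counts per 1000000 counts of the library) in all 6 libraries, Ms4a1 and Pax5 among them. The 5 summed to 24.4 to 32.4 CPM in B220- and 30.4 to 34.5 CPM in B220+ libraries, mostly Cd79b (27.4 ± 4.37 and 31.7 ± 1.80 CPM, edgeR adjusted p = 0.357).

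These cytokines are short secreted messengers with which T cells instruct other cells. Interferon gamma (Ifng) arms macrophages and epithelium in type 1 immunity, interleukins 4, 5, 9 and 13 drive the type 2 response of mast cells, eosinophils and mucus-producing epithelium, and interleukin 21 (Il21) is the product of follicular helper T cells that helps B cells mature. Interleukin 10 (Il10) restrains inflammation in the gut, interleukin 2 (Il2) feeds T cell growth, interleukin 3 (Il3) acts on blood cell precursors, and interleukin 6 (Il6) is made mainly by myeloid and stromal cells. T cells make little cytokine mRNA at rest and switch these genes on briefly after antigen receptor signals, through factors such as NFAT and AP-1. Lymphocytes of the gut epithelium are mostly cytotoxic cells with CD8, and interferon gamma is their best known member of this group.

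Interferon gamma was the most abundant of the 10 transcripts in both sorted populations, and B220+ cells held less of it. Il21 nearly disappeared from B220+ cells, Il10 averaged several fold less there with a call that depended on the model, and Il2 was low in both groups. Il4 and Il13 were at the limit of detection, Il3 and Il6 rested on a handful of reads, and Il5 and Il9 had no read in any library. Of the 10 genes, 4 passed the filter on low counts (about 0.626 CPM in at least 3 libraries), and of these 2 were called lower in B220+ cells, Ifng and Il21, and 0 higher. The test was edgeR's quasi-likelihood test with Benjamini-Hochberg adjustment, and at an adjusted p under 0.05 it called 5.56% of all 14722 tested genes lower and 5.58% higher. Every B220+ library lay below every B220- library in 13.9% of the tested genes. Il21 passed that filter through its B220- libraries alone, so its count among the 4 is no separate evidence. Library totals ran from 11320363 to 39591312 counts, and B220+ replicate 2 was the deepest. The counts of the 10 genes together came to 109 to 134 CPM in B220- and 36.8 to 41.7 CPM in B220+ libraries.

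**Figure D1:**
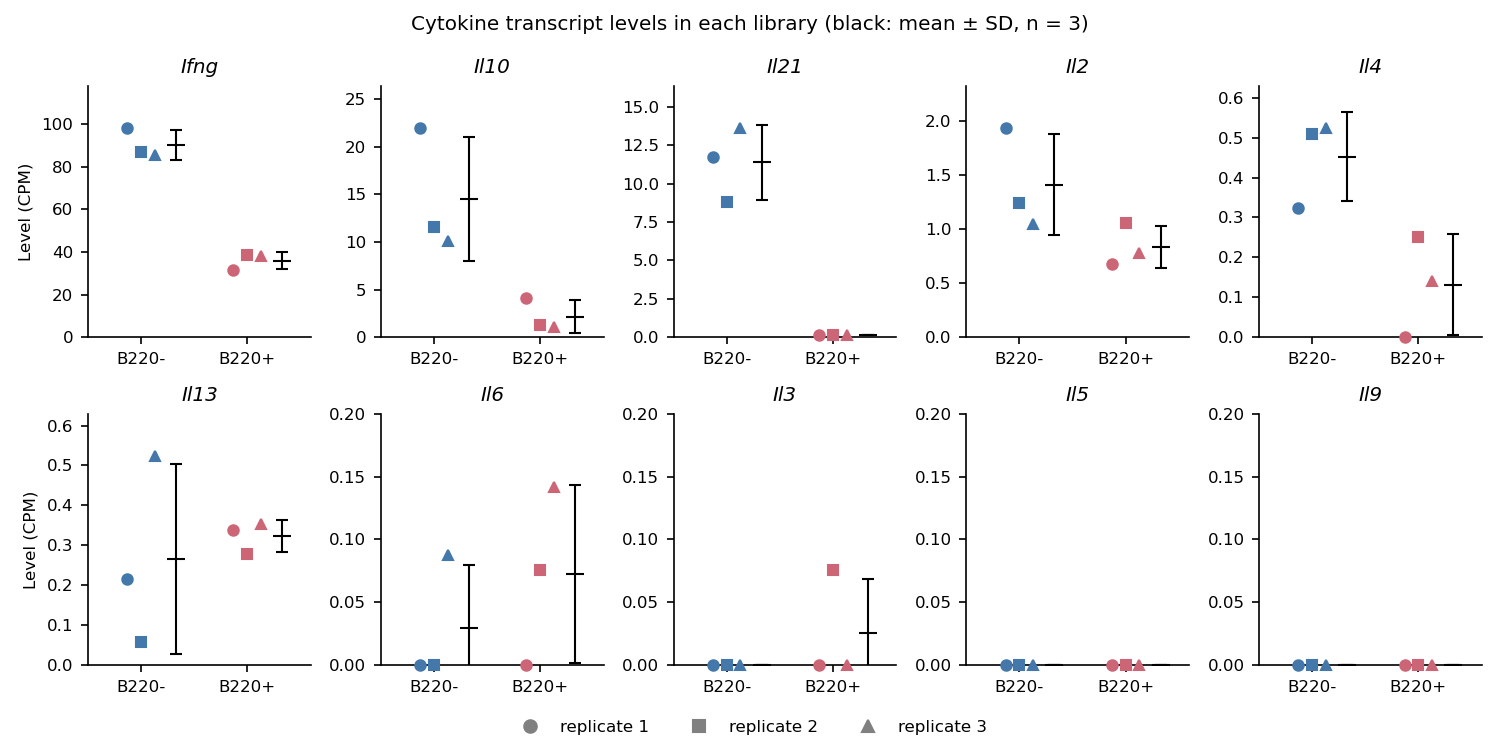
Level of each cytokine transcript in CPM (linear axes starting at 0, different scale in each panel) in the 3 B220- and 3 B220+ libraries, with the group mean ± SD in black. Ifng, Il10, Il21 and Il4 were lower in every B220+ library than in any B220- library, and Il5 and Il9 lie at 0 throughout.

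To show the regulatory sequence in front of the genes on which the comparison turns, the 250 bases before the RefSeq start site (build GRCm38.p6, strand of the gene, 5′ to 3′) are given for Ifng, which fell moderately, Il21, which fell most, and its neighbour Il2, which did not pass the test. Capitals mark matches on either strand to the core letters of NFAT sites, GGAAA, and to the Maf half-site letters, TGCTGA.
Ifng (chr10:118440796-118441045, plus strand): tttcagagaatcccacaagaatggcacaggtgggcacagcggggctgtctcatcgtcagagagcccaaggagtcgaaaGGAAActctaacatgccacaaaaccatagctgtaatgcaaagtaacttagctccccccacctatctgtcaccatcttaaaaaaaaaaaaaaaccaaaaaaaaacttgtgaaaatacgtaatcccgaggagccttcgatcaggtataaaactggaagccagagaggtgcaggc
Il21 (chr3:37232637-37232886, minus strand): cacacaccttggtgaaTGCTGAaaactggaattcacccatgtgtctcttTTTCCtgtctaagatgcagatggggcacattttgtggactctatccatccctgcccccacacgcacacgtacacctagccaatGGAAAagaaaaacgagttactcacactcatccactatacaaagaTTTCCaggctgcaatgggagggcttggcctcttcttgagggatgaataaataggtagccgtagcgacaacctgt
Il2 (chr3:37125955-37126204, minus strand): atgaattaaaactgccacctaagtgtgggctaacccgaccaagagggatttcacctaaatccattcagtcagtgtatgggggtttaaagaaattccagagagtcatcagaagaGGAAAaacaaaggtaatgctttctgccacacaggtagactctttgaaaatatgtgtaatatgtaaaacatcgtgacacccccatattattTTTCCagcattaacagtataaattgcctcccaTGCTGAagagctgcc
The NFAT letters occurred 1 time before Ifng, 3 times before Il21 and 2 times before Il2, and in 55.6% of the 32851 promoter windows of the same length in the table. The Maf half-site letters occurred 1 time each before Il21 and Il2 and 0 times before Ifng, and in 16.1% of all windows. The letters TATAAA, the TATA box, occurred before Ifng and Il2, and in 12.4% of all windows. Neither the AP-1 letters TGANTCA (N, any base) nor the T-box letters GGTGTGA occurred before any of the 3 genes. AP-1 letters occurred in 6.75% and T-box letters in 3.33% of all windows. STAT letters, TTCNNNGAA, occurred 1 time before Ifng, 0 times before Il21 and Il2, and in 7.02% of all windows. The motifs do not overlap one another in the 3 windows, and a match describes letters, not binding. Windows were found for 9 of the 10 cytokine genes, all but Il10.

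Ifng (ENSMUSG00000055170, mm10 chromosome 10, 118441046 to 118445892, plus strand, protein-coding, 4 exons) is the signature cytokine of type 1 T cells and of cytotoxic lymphocytes. Its level was 98.3, 86.9 and 85.4 CPM in B220- replicates 1 to 3 and 31.5, 38.6 and 37.9 CPM in B220+ replicates 1 to 3. The groups did not overlap, and each was tight, with means of 90.2 ± 7.04 and 36.0 ± 3.92 CPM (SD, n = 3 each). The log2 fold change was -1.32 (SE 0.092, 95% interval -1.52 to -1.12), which is 2.50-fold lower in B220+ cells, with an edgeR adjusted p of 3.21e-06. The call held in all 6 fits that left out a library (edgeR adjusted p 2.05e-07 to 8.06e-05). A gene model of unsettled coding status, Gm49751, lies inside Ifng on the same strand and shares 336 exonic bases with it. It held 1228 counts against 6773 for Ifng and was lower too (16.1 ± 2.54 and 6.83 ± 1.12 CPM). With the counts of both models summed, an alternative chosen after seeing the data, the log2 fold change of Ifng was -1.31. Natural killer cells also make Ifng, and their 2 markers Klrb1c and Ncr1 summed to 8.83 to 11.9 CPM in B220- and 21.9 to 24.0 CPM in B220+ libraries, with Ncr1 under 1 CPM throughout. The 1 marker tested, Klrb1c, was called higher in B220+ cells. The part of natural killer cells in the Ifng level was not tested.

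Il21 (ENSMUSG00000027718, mm10 chromosome 3, 37222759 to 37232636, minus strand, protein-coding, 5 exons) acts on B cells and on cytotoxic T cells through the receptor Il21r. It stood at 11.7, 8.78 and 13.6 CPM in B220- replicates 1 to 3 and at 0.170, 0.151 and 0.141 CPM in B220+ replicates 1 to 3. All B220- libraries lay far above all B220+ libraries, on 529 counts over the former and 10 over the latter. The log2 fold change was -6.16 (SE 0.31, 95% interval -6.83 to -5.48), a 71.3-fold difference with an edgeR adjusted p of 1.92e-07. The call held in all 6 fits that left out a library (edgeR adjusted p at most 1.76e-05). The antisense gene Gm12534 overlaps 469 exonic bases of Il21, and the 2 can trade reads if counting ignored strand, which the sources used here do not give. Gm12534 went from 77 counts in the B220- group to 0 in the B220+ group, at least 35.4-fold lower against a floor of 3 counts over the B220+ group.

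Il10 (ENSMUSG00000016529, mm10 chromosome 1, 131019845 to 131024974, plus strand, protein-coding, 5 exons) is made by regulatory T cells and by stimulated effector cells. The B220- libraries held 21.98, 11.6 and 10.1 CPM in replicates 1 to 3, and the B220+ libraries 4.16, 1.26 and 1.06 CPM. Every B220+ library was below every B220- library, and in each group replicate 1 was the highest. The log2 fold change was -2.91 (SE 0.63, 95% interval -4.54 to -1.28), 7.52-fold lower, but the edgeR adjusted p of 0.0528 missed the threshold. A fit with a replicate block, whose pairs are inferred from these same data and not from the labels, gave an edgeR adjusted p of 6.57e-09. The 3 differences within numbers were -2.40, -3.20 and -3.24 on the log2 scale. The adjusted p was 0.00134 with DESeq2, 0.00293 without the robust option and 0.00407 without B220+ replicate 1. It was up to 0.174 (without B220+ replicate 2) in the other fits that left out a library. The direction was the same in all 13 alternative fits. Plasma cells and myeloid cells can make Il10 too. The 4 plasma cell markers summed to 12.9 to 103 CPM in B220- and 6.02 to 24.5 CPM in B220+ libraries, mostly Jchain, with Mzb1 at 0. Of the 2 tested, 1 was called lower in B220+ cells and 0 higher. The 10 macrophage and dendritic cell markers summed to 255 to 327 and 386 to 537 CPM, mostly Itgax, which gut T cells also carry. Of the 6 tested, 1 was called lower in B220+ cells and 0 higher. The part of plasma and myeloid cells in the Il10 level was not tested.

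Il2 (ENSMUSG00000027720, mm10 chromosome 3, 37120523 to 37125959, minus strand, protein-coding, 4 exons) is the T cell growth factor made soon after activation. It stood at 1.94, 1.25 and 1.05 CPM in the B220- and 0.679, 1.06 and 0.778 CPM in the B220+ libraries, replicates 1 to 3. The groups overlapped, by B220+ replicate 2 and B220- replicate 3. The log2 fold change of -0.71 (SE 0.38, 95% interval -1.54 to 0.12) had an edgeR adjusted p of 0.309, and 0.306 with the replicate block. The interval reaches from a large fall to a slight rise, so these 131 counts do not settle whether Il2 differed. None of the 6 fits that left out a library called it (edgeR adjusted p 0.284 to 0.728).

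**Figure D2:**
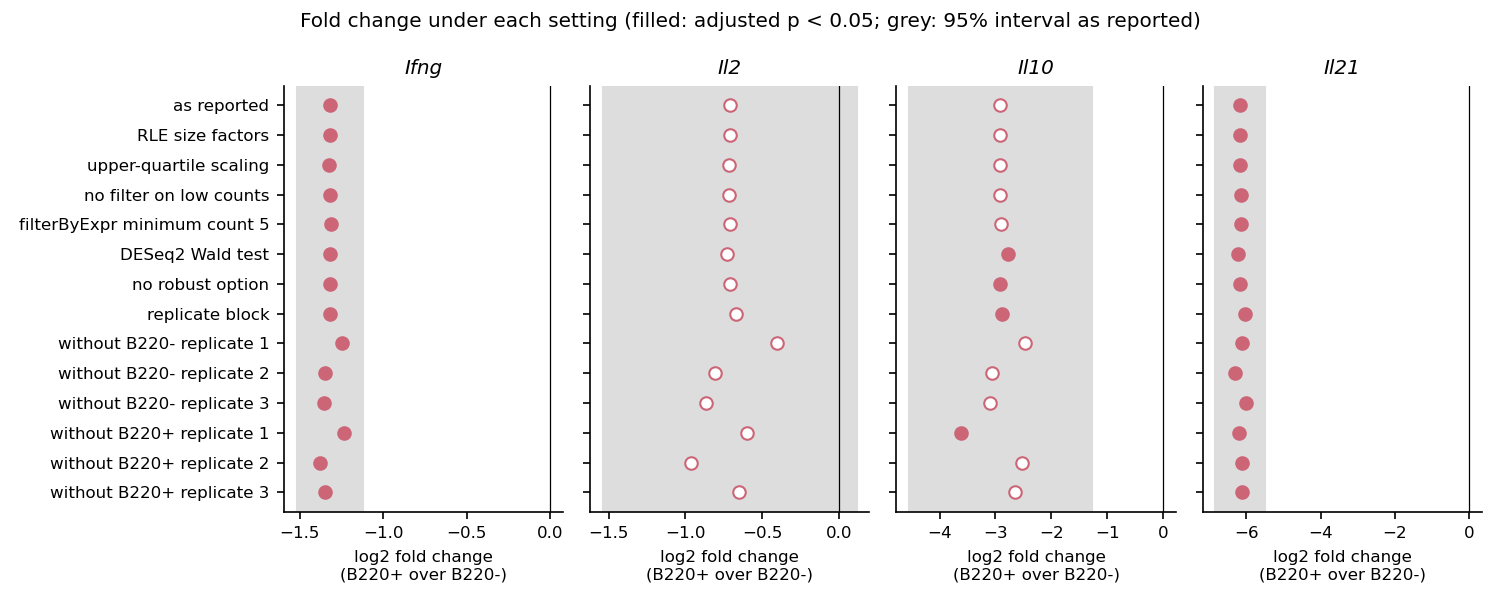
Log2 fold change of the 4 tested cytokines under 14 settings (filled points, adjusted p under 0.05; grey band, the 95% interval as reported). Ifng and Il21 are filled in every row, Il2 in no row, and Il10 in 4 of the 14.

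Of the type 2 genes, Il4 (ENSMUSG00000000869, mm10 chromosome 11, 53602982 to 53618669, minus strand), which turns T cells to the type 2 fate and B cells to IgE, had 6, 9 and 6 counts in the B220- and 0, 10 and 2 in the B220+ libraries. At 0.323, 0.510 and 0.525 against 0, 0.252 and 0.141 CPM the groups did not overlap. The pooled ratio was 2.41 in favour of B220- (95% counting interval 1.13 to 5.37, which covers counting error only). Il4 did not pass the filter on low counts, and with no filter its edgeR adjusted p was 0.404.

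Il13 (ENSMUSG00000020383, mm10 chromosome 11, 53631324 to 53634702, minus strand), which acts on epithelium and goblet cells, had 4, 1 and 6 counts in the B220- and 4, 11 and 5 in the B220+ libraries. Its levels of 0.215, 0.0567 and 0.525 CPM enclosed the B220+ levels of 0.339, 0.277 and 0.354 CPM. The pooled ratio of B220+ to B220- was 1.32 (95% counting interval 0.603 to 3.05), and with no filter the edgeR adjusted p was 0.881. Il5 (chromosome 11, 53720794 to 53725106, plus strand), the eosinophil growth factor, and Il9 (chromosome 13, 56479277 to 56482246, minus strand), the mast cell growth factor, had 0 counts in all 6 libraries. A count of 0 allows up to 0.0630 CPM over the B220- and 0.0457 CPM over the B220+ libraries (3 counts of the group's total).

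Il3 (chromosome 11, 54265303 to 54267277, minus strand) had 3 counts, all in B220+ replicate 2, the deepest library, which is 0.0755 CPM. Il6 (chromosome 5, 30013114 to 30019981, plus strand) had 1 count over the B220- libraries, in replicate 3, and 5 over the B220+ libraries, 3 in replicate 2 and 2 in replicate 3. The ratio of Il6 in B220+ to B220- was 3.63 with a 95% counting interval of 0.406 to 172. No difference in Il3 or Il6 was detectable at this depth.

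Compared per kilobase of exons, so that the genes can be ranked, the mean level in B220- cells was 69.6 CPM per kb for Ifng, 11.1 for Il10, 2.17 for Il21, 1.23 for Il2, 0.369 for Il4 and 0.220 for Il13. Neighbours in that order overlapped between libraries for Il21 and Il2 (lowest Il21 1.67, highest Il2 1.70 CPM per kb) and for Il4 and Il13, and the others did not. In B220+ cells the mean order was Ifng at 27.8, Il10 at 1.65, Il2 at 0.733, Il13 at 0.268, Il4 at 0.107, Il3 at 0.0400, Il6 at 0.0298 and Il21 at 0.0293 CPM per kb. Il10 and Il2 overlapped there (0.810 to 3.17 and 0.593 to 0.925), and the genes below Il13 rested on 12 or fewer counts each. Il21 thus ranked behind Ifng and Il10 in B220- cells. In B220+ cells such counts do not settle the order of Il4, Il3, Il6 and Il21. Before the division by exon length, their B220+ means were 0.131, 0.0252, 0.0723 and 0.154 CPM. Of the summed counts of the 10 genes, Ifng took 73.1% to 79.7% in B220- and 85.5% to 93.5% in B220+ libraries, and Il21 8.06% to 12.3% and 0.349% to 0.461%.

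Of the 3 coreceptor genes, Cd4 and Cd8b1 fell and Cd8a rose. Cd4, the helper coreceptor, had 215, 125 and 190 CPM in the B220- and 8.23, 6.67 and 7.99 CPM in the B220+ libraries (log2 fold change -4.56, 95% interval -5.23 to -3.90, edgeR adjusted p = 3.79e-04). The CD8β gene Cd8b1 fell by 3.16 on the log2 scale (95% interval -3.95 to -2.37, edgeR adjusted p = 0.00447). Cd8a, the CD8α gene, rose by 0.36 (95% interval 0.20 to 0.53, edgeR adjusted p = 0.00779). As a share of the B220- mean, the B220+ libraries held 1.24% to 1.49% of Il21, 3.77% to 4.65% of Cd4, 8.996% to 13.5% of Cd8b1, 7.30% to 28.6% of Il10 and 34.9% to 42.8% of Ifng. Each library pools many cells, so fewer cells of a type and less RNA per cell cannot be told apart, and the part of Cd4-bearing cells in these differences was not tested.

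**Figure D3:**
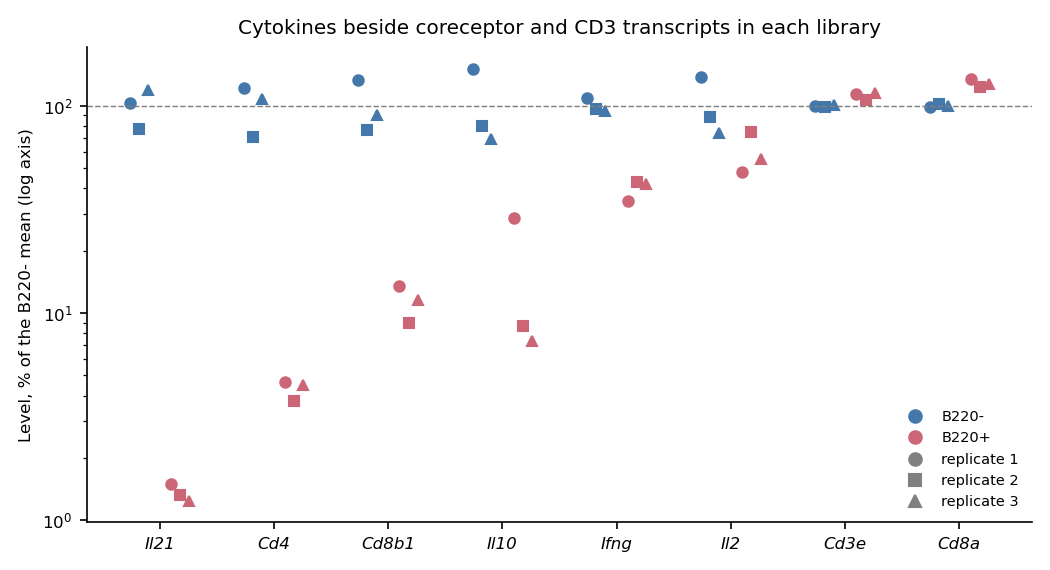
Level of cytokine, coreceptor and Cd3e transcripts in each library as a percentage of the B220- mean of that gene (log axis; colour gives the group, marker shape the replicate). The B220+ libraries lie between 1.24% and 1.49% for Il21, between 34.9% and 42.8% for Ifng and above 100% for Cd3e and Cd8a.

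Receptors of these cytokines changed chain by chain. Of 18 receptor genes, 14 were tested, and their median log2 fold change was -0.15 against -0.0074 over all genes tested. Among the 14, 2 were called higher and 4 lower, against 5.58% and 5.56% of all tested genes. Il6ra, the private chain for interleukin 6, went from 245 counts in the B220- group to 4 in the B220+ group, a log2 fold change of -6.28 (edgeR adjusted p = 1.01e-04). It passed the filter on low counts through its B220- libraries alone, and with 4 counts in B220+ cells its count ratio of 84.4 had a 95% counting interval of 32.5 to 312. The shared signalling chain Il6st rose from 117 ± 13.9 to 190 ± 16.9 CPM (SD, n = 3 each), by 0.71 on the log2 scale (edgeR adjusted p = 3.79e-04). For interleukin 2, the high-affinity chain Il2ra fell by 2.30 (10.8 ± 3.17 to 2.16 ± 0.460 CPM), the signalling chain Il2rb was called higher, and Il2rg was not called (165 and 167 CPM). Ifngr2, the chain that limits interferon gamma signalling in T cells, fell from 7.27 ± 0.597 to 1.75 ± 0.344 CPM (log2 fold change -2.01, edgeR adjusted p = 7.71e-05), whereas Ifngr1 stood at 484 and 457 CPM (edgeR adjusted p = 0.686). Il10ra fell from 29.6 ± 5.30 to 10.7 ± 0.873 CPM (log2 fold change -1.47, edgeR adjusted p = 2.69e-05). Il21r, on the receiving side of Il21, was abundant in both groups, at 502 ± 11.2 and 533 ± 27.9 CPM (log2 difference 0.086, 95% interval -0.061 to 0.23, edgeR adjusted p = 0.521).

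Among receptors and factors of the type 1 programme, several receptors fell while the master factor was not called. The median log2 fold change of this type 1 list was -0.30. In it, 5 of 11 tested genes were called lower and 0 higher, against 5.56% and 5.58% of all tested genes. With the replicate block 6 were lower and 1 higher, where that fit called 1266 of all 14722 tested genes lower and 1303 higher. The 5 genes were the interleukin 18 receptor chains Il18r1 (log2 fold change -4.95) and Il18rap (-2.53), the chemokine receptor Cxcr3 (-0.83), the factor Eomes (-1.28) and the interleukin 12 receptor chain Il12rb1 (-0.41). Their edgeR adjusted p ran from 4.18e-07 for Il18r1 to 0.00599 for Il12rb1. Tbx21, which encodes T-bet, the factor that opens the Ifng locus, stood at 173, 193 and 185 CPM in the B220- and 174, 199 and 174 CPM in the B220+ libraries. The groups overlapped, with a log2 difference of -0.0050 (95% interval -0.17 to 0.16, edgeR adjusted p = 0.979).

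Several genes of follicular helper cells, the main source of Il21, were called lower and none was called higher. The list was chosen with earlier results of these data known, so its counts are a description only. The median log2 fold change of the 14 genes tested was -1.70. Of these, 8 were called lower and 0 higher, against 5.56% and 5.58% of all 14722 tested genes. Those with the smallest adjusted p were Cd40lg, the ligand that activates B cells (31.8 ± 5.20 to 2.04 ± 0.476 CPM), the factor Lef1 (log2 fold change -2.22), the inhibitory receptor Btla (-2.72) and the receptor Slamf6 (-1.54), with edgeR adjusted p from 1.59e-07 to 5.59e-05. Bcl6, the defining factor of follicular helper cells, stood at 50.6 ± 2.56 and 44.2 ± 2.96 CPM and missed the threshold (edgeR adjusted p = 0.165). Cxcr5, their homing receptor, was low in both groups (1.86 ± 0.838 and 0.516 ± 0.498 CPM, edgeR adjusted p = 0.0841, and 0.0126 in the replicate block fit). Cd4 moved with the list, and the part of Cd4-bearing cells in it was not tested. The factor Maf, a known activator of Il21, Il10 and Il4, fell from 76.6 ± 19.3 to 6.93 ± 1.301 CPM (log2 fold change -3.43, edgeR adjusted p = 3.05e-04).

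In the list linked to Il10, 2 of 8 tested genes were called higher and 4 lower, against 5.58% and 5.56% of all tested genes. It had 1 higher without B220- replicate 1 or 3 or B220+ replicate 2 or 3, and 2 lower without B220- replicate 3 or B220+ replicate 1 or 3. Lag3 rose by 1.03 on the log2 scale to 529 ± 42.0 CPM (edgeR adjusted p = 2.29e-04), Maf fell as above, and Foxp3, the factor of regulatory T cells, fell from 13.4 ± 0.387 to 6.65 ± 1.06 CPM (edgeR adjusted p = 7.47e-04). Ctla4 was called lower (log2 fold change -1.26, edgeR adjusted p = 0.0333) in the full data and in 2 of the 6 fits that left out a library, with an adjusted p of 0.114 without B220+ replicate 2, 0.112 without B220+ replicate 1, 0.109 without B220+ replicate 3 and 0.0946 without B220- replicate 3. It was 0.0821 with no filter on low counts.

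In the type 2 and Th9 list 6 of 11 genes were tested, and the other 5 were too low to test. Of the 6, 3 were called lower and 0 higher, against 5.56% and 5.58% of all tested genes. Of the 3 calls, Ccr4 and Il17rb passed the filter through their B220- libraries alone. With no filter on low counts 6 were lower, and 5 were lower without B220+ replicate 1. Ccr4, a homing receptor of type 2 and regulatory cells, went from 272 counts to 1, a ratio of 375 (95% counting interval 66.7 to 14850). Irf4 fell from 79.3 ± 11.7 to 25.0 ± 1.95 CPM (edgeR adjusted p = 4.22e-06), and Il17rb, the receptor for interleukin 25, from 1.74 ± 0.873 to 0.326 ± 0.249 CPM (edgeR adjusted p = 0.0139). The Il17rb call was lost without B220- replicate 3 (adjusted p = 0.0797), B220+ replicate 2 (0.0957) or B220+ replicate 3 (0.0615). Gata3, the master factor of the programme, stood at 62.2 ± 7.33 and 55.3 ± 3.27 CPM (edgeR adjusted p = 0.326). The 3 genes added with no filter, also called by DESeq2 and named after their values were seen, were Il1rl1, the interleukin 33 receptor (26 and 1 counts over B220- and B220+ libraries), Ccr8 (36 and 1) and the factor Spi1 (28 and 3).

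Mast cells and granulocytes also make type 2 cytokines, and their markers stood beside the low Il4 and Il13 counts. Summed over 10 mast cell markers the level was 51.8 to 110.4 CPM in B220- and 203.5 to 318 CPM in B220+ libraries, mostly Kit, the stem cell factor receptor (74.2 ± 26.7 and 269 ± 62.0 CPM, edgeR adjusted p = 0.0543, and 4.12e-07 in the replicate block fit). Cpa3 was at 3.78 ± 1.21 and 3.59 ± 0.526 CPM, Mcpt1 at 5.60 ± 3.79 and 0.518 ± 0.237 CPM, and Fcer1a, Ms4a2, Tpsb2, Cma1 and Gata2 lay under 1 CPM in all 6 libraries. Of the 4 mast cell markers tested, 0 were called higher and 1 lower, so the higher sum in B220+ libraries does not hold across the markers. Of 5 basophil and eosinophil markers, Prss34 and Epx had no count and the sum was at most 0.354 CPM. The part of such cells in the Il4 and Il13 reads was not tested.

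Factors that act on cytokine genes after antigen receptor signalling were mostly not called, with 1 of 15 tested genes higher and 1 lower. That is close to the shares over all 14722 tested genes, 5.58% higher and 5.56% lower, so the counts do not set this list apart. Batf3 rose by 2.44 on the log2 scale (1.07 ± 0.154 to 5.75 ± 0.663 CPM, edgeR adjusted p = 4.38e-05), and Nfatc2 was lower by a small margin (156 ± 4.01 to 131 ± 2.51 CPM, edgeR adjusted p = 0.0189). The Nfatc2 call was lost without B220- replicate 3 or any of the 3 B220+ libraries (adjusted p 0.0537 to 0.0735). Nfatc3 (log2 difference -0.21, edgeR adjusted p = 0.0677, and 0.0234 in the block fit) and Nfatc1 (0.17, edgeR adjusted p = 0.146) did not pass. With the replicate block 6 of the 15 genes were called lower and 1 higher. That fit called 1266 of all 14722 tested genes lower and 1303 higher. Among the 5 feedback genes that cytokine receptors induce, Cish fell by 0.88 on the log2 scale (261 ± 6.75 to 142 ± 13.3 CPM, edgeR adjusted p = 1.38e-05). Socs1, Socs2 and Socs3 were not called, with log2 differences of -0.10, -0.17 and -0.063 and edgeR adjusted p of 0.835, 0.598 and 0.806.

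The median log2 fold change of 15 tested genes known to be induced by interferon gamma was -0.35. Of these, 9 were called lower and 0 higher, against 5.56% and 5.58% of all tested genes. With the replicate block 11 were lower and 1 higher, where that fit called 1266 of all 14722 tested genes lower and 1303 higher. Iigp1, an immunity-related GTPase, fell most and passed the filter through its B220- libraries (4.63 ± 1.15 to 0.604 ± 0.293 CPM, log2 fold change -2.94, edgeR adjusted p = 1.65e-04). Next by adjusted p were Igtp (log2 fold change -0.50), the proteasome subunit Psmb9 (-0.37) and the peptide transporter Tap1 (-0.35), with edgeR adjusted p of 0.00225, 0.00659 and 0.00740. Type I interferon induces the same genes, so the list does not tell the interferons apart. The number called lower was 5 without B220+ replicate 2 and 6 to 9 without any other library. Enterocyte and epithelial markers, 9 genes, summed to 310 to 374 CPM in B220- and 338 to 384 CPM in B220+ libraries. All 9 were tested, with 0 called higher and 0 lower. The part of epithelial RNA in the levels of the interferon gamma targets was not tested.

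**Figure D4:**
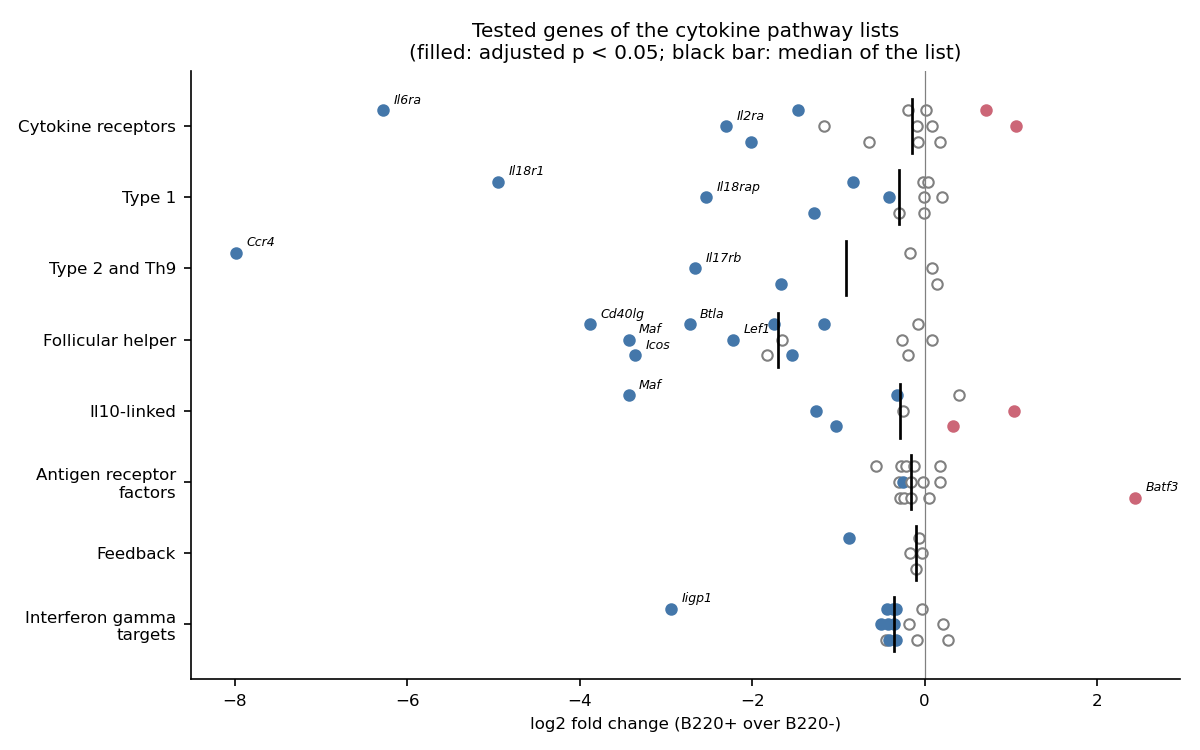
Log2 fold change (B220+ over B220-) of each tested gene in the 8 lists of cytokine receptors, programmes and targets (filled points passed the edgeR test, open points did not; the black bar is the list's median). The follicular helper list has its median at -1.70 and no gene called higher, whereas the receptor and Il10-linked lists have genes called in both directions.

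The cytokine genes sit in clusters, and neighbours did not move alike. On chromosome 10, Il22 starts 236 kb upstream of Ifng and went from 394 counts in B220- to 2 in B220+ libraries. That is a pooled count ratio of 271 (95% counting interval 74.6 to 2249), against a pooled ratio of 2.45 for Ifng. Il22 passed the filter on low counts through its B220- libraries alone. Its close copy Iltifb, which can share reads with it, went from 28 to 0, at least 12.9-fold lower against a floor of 3 counts over the B220+ group. On chromosome 3, Il2 and Il21 lie 107 kb apart on the same strand, with Il21 called lower and Il2 not called. On chromosome 11, Il4, Il13 and Il5 surround Rad50, which stood at 50.4 ± 2.33 and 51.0 ± 3.11 CPM (edgeR adjusted p = 0.943). Kif3a on the other side of Il4 (3.55 ± 0.666 and 5.64 ± 0.282 CPM, edgeR adjusted p = 0.0586) and Irf1 (462 ± 21.3 and 407 ± 34.1 CPM, edgeR adjusted p = 0.170) stayed short of a call. Csf2, which encodes GM-CSF and lies beside Il3, had 1.77 ± 0.623 and 9.25 ± 2.97 CPM (log2 fold change 2.36, edgeR adjusted p = 4.90e-04), while its neighbour Il3 had 3 counts in all. P4ha2 and Slc22a21 were called higher and Septin8 lower in the same stretch, and these 3 genes are named after their values were seen.

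**Figure D5:**
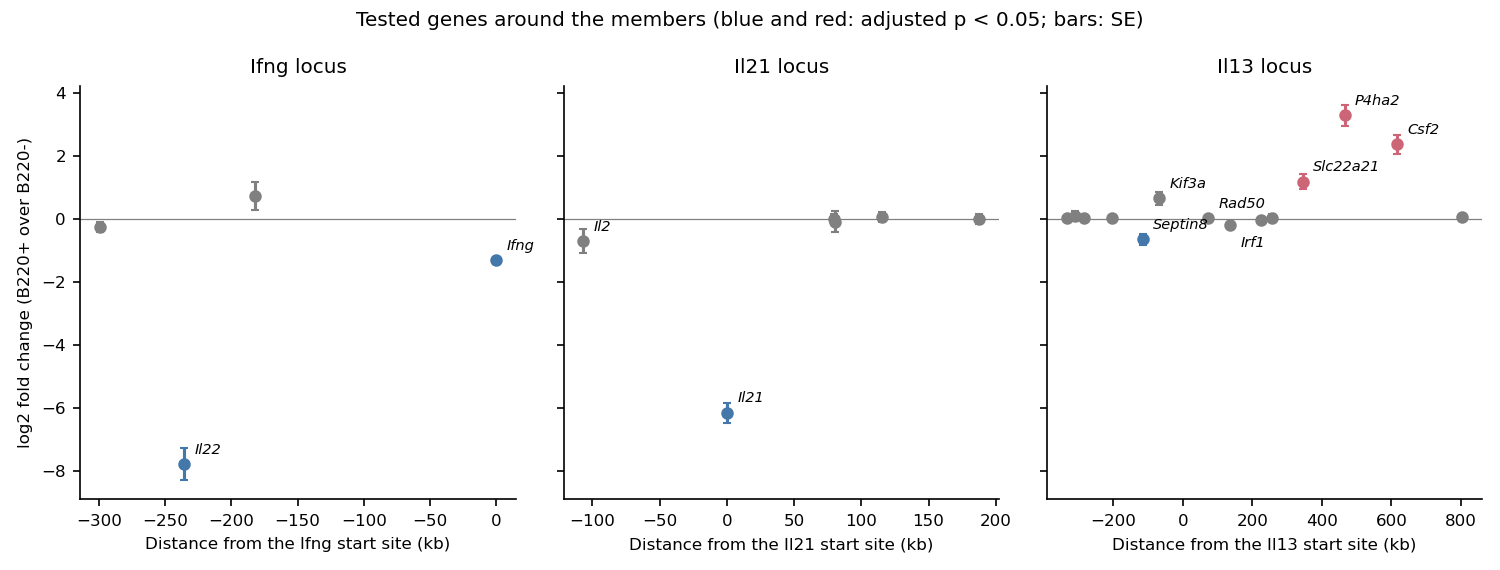
Log2 fold change (± SE) of tested protein-coding genes against their distance from the start site of Ifng, Il21 or Il13 in kb (blue, called lower; red, called higher; grey, not called). Il22 and Il21 stand at -7.78 and -6.16, the other tested genes around Il21 are not called, and Csf2 is called higher at 615 kb from Il13.

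The genes whose log2 level ran closest to each cytokine over the 6 libraries were Sh3bp5 and Perm1 for Ifng, Adgre5 and Ntrk3 for Il21, Ptcd2 and Tor1a for Il10, and Elp4 and Shoc2 for Il2. Their Pearson correlations were 0.994 to 0.999. The 6 points of each fall into the 2 groups and share library and depth, and 812 genes correlated with Il21 above 0.9, so these are descriptions only.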

How the data were processed

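Total RNA of 6 sorted samples was sequenced after a directional library preparation, per the labels' protocols. The authors deposited a table of raw gene counts. It was made with mm10, featureCounts 1.6.3, HISAT2 2.1.0 and Trimmomatic 0.38, with SAMtools 1.9 and FastQC 0.11.7 beside them, as the submitters' processing notes list. How strand was counted and which annotation was used is not given in the sources used here. Among the gene models, 98.73% had the coordinates of GENCODE M21, which gave exon lengths. Promoter windows came from RefSeq (GRCm38.p6).

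Counts were tested with edgeR 4.0.16 in R 4.3.3: TMM scaling, the filterByExpr filter (minimum count 10), a robust quasi-likelihood fit on the group, and Benjamini-Hochberg adjustment over 14722 genes. CPM use the scaled library sizes (factors 0.990 to 1.01), SE is the log2 fold change divided by the root of F, and intervals cover 95%. On simulated counts the fit recovered 19.3% of 1.5-fold, 78.7% of 2-fold and 100% of 4-fold changes, so it can miss small differences. Changes were simulated only in genes above a minimum mean count. In the real libraries Il10 was 7.52-fold lower and not called, so these percentages need not hold for every gene. The simulated spread was fixed and not taken from these libraries.

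Same-numbered libraries correlated in their deviations from the group mean (0.295, 0.246 and 0.272, others -0.203 to -0.0675). The numbers were taken as pairs in the replicate block fit alone, which was an alternative, and the main fit used no pairs. That pairing is inferred from these same data and not from the labels. Replicates differed by more than sampling noise, with chi-square over its degrees of freedom at 7.37 to 16.2. Counting intervals and floors cover counting error only. The cytokines and the 8 gene lists were chosen with earlier results of these data known. Named from each list were the 4 tested genes with the smallest adjusted p, beside defining genes, coreceptors, markers, overlapping genes, locus neighbours and, per cytokine with 100 or more counts, the 2 genes most like it. Other list genes were named for their role, after their values were seen.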

Additional observations from a re-analysis of the deposited data

How the results depend on the processing

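Ifng and Il21 were called lower in all 13 alternatives (RLE and upper-quartile scaling, 2 filters, DESeq2, no robust option, the replicate block and 6 fits without a library), and in the fits with an overlapping model added (log2 fold change -1.31 and -6.34). Il10 was the cytokine whose call changed, and the replicate block changed no other cytokine's call. The number of the 10 cytokines called lower was 2 to 3. With the replicate block 1303 genes were called higher and 1266 lower, against 821 and 818. In the lists the block gave 1 type 1 gene higher, 6 antigen receptor factors lower and 1 interferon gamma target higher. The type 2 list had 6 genes lower with no filter on low counts and 6 with DESeq2, and the Il10-linked list had 1 higher without the robust option. Without each library in turn, 425 to 966 genes were called higher (425 without B220+ replicate 2, 441 without B220- replicate 3) and 545 to 823 lower (545 without B220+ replicate 2). These fits gave 2 to 5 genes lower in the type 2 list, 1 to 3 higher and 2 to 4 lower in the Il10-linked list, 0 to 1 antigen receptor factors lower (0 without B220- replicate 3 or B220+ replicate 1 or 3) and 5 to 9 interferon gamma targets lower. The cause of these shifts was not tested. Without the filter, fewer than 34 counts lay behind each of Il3, Il4, Il6 and Il13, so depth limits what their comparison can show.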
